A study of Homo sapiens with 9 samples.

Results

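Platelet granule cargo genes were followed in bulk RNA-seq of SET2, an established *JAK2* mutant megakaryoblastic leukemia line that the deposited labels class as AML arising after a myeloproliferative neoplasm. The set was chosen by gene symbol and holds 9 of the 60662 genes in the deposited table: *PF4*, *PPBP*, *VWF*, *SELP*, *THBS1*, *MMRN1*, *TGFB1*, *F13A1* and *SRGN*. Of the 9 libraries, 3 were of unedited SET2 cells (WT) and 3 each were of the *DYRK1A* KO clones 11H1 and 14B5, and none of the cells were treated. Each KO clone was expanded from 1 cell sorted after Cas9 ribonucleoprotein had been nucleofected, and was kept for carrying out-of-frame indels, so the 3 libraries of a clone share a founder cell and are replicates of that clone only. No clone grown from an unedited cell was sequenced, so an effect of the KO and a property of the founder cell cannot be told apart. Nothing in the labels says that libraries of a group came from separate cultures, so the p values measure the spread between these libraries, which may be technical.

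Megakaryocytes make platelets and load them with alpha granules, which store proteins that are released when a platelet is activated. PF4 and PPBP are chemokines, VWF, THBS1 and MMRN1 are adhesive glycoproteins, SELP (P-selectin) is a receptor of the granule membrane that reaches the surface on activation, TGFB1 is a growth factor, and F13A1 is the catalytic subunit of the fibrin cross-linking factor XIII. *SRGN* encodes serglycin, the proteoglycan core protein whose sulfated chains hold basic cargo such as PF4 inside granules. VWF, SELP and MMRN1 are also stored by endothelial cells, and F13A1, SRGN and TGFB1 are made by many other blood cells.

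Totals ran from 32347779 to 60272245 expected counts per library, and levels are given as CPM (counts divided by the TMM-scaled library size and multiplied by 1000000). *DYRK1A*, the targeted gene, was counted at 196 to 218 CPM in WT, 188 to 192 CPM in 11H1 and 174 to 191 CPM in 14B5, and an indel does not by itself remove a transcript from the count. The mitochondrial share of counts was 3.54% to 6.03% in WT, 7.23% to 7.39% in 11H1 and 3.30% to 3.92% in 14B5. Of 16 megakaryocyte markers, 13 had a mean of at least 1 CPM in WT, 12 in 11H1 and 10 in 14B5. *TREML1* was at 0 in every library of both clones, and *MYL9* in every library of 11H1. In WT *MYL9* held 2, 0 and 0 counts, so a marker at 0 in a clone need not be a clear loss. Libraries of the same group differed from each other by more than sampling noise (chi-square per gene of 4.04 to 35.8), so none was deposited under 2 names.

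Against WT, both clones had lost most or all reads of *PF4*, *PPBP* and *SELP*, had less *MMRN1* and *SRGN*, and had more *F13A1* (1.96-fold in 11H1 and 1.89-fold in 14B5). *THBS1* separated the clones, since it was 4.35-fold lower in 14B5 and close to WT in 11H1. *TGFB1*, together with *SRGN* the most abundant of the set, differed from WT by less than 10% in either clone. The chemokines are described first, then the membrane receptor, the adhesive glycoproteins, the growth factor, the cross-linking enzyme and the proteoglycan core.

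*PPBP* and *SELP* fell furthest among the members whose promoter sequence was at hand, and *THBS1* and *MMRN1* are the adhesive glycoproteins on which the clones differed most, so the stretches before their start sites are shown. Sequences are from RefSeq on GRCh38.p14, 5′ to 3′ on the strand of the gene, and each ends at the RefSeq start or, where an exon of GENCODE v29 reaches further upstream, before that exon. Capitals mark the letters GATAA or their reverse complement TTATC, the core bound by GATA factors, which drive megakaryocyte genes.
PPBP, chr4:73988198-73988440, minus strand: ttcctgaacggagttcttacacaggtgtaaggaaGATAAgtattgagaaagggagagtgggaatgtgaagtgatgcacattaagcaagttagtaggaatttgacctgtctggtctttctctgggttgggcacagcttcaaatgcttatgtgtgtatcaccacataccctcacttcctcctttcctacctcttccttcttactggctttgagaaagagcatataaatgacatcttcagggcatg
SELP, chr1:169630194-169630374, minus strand: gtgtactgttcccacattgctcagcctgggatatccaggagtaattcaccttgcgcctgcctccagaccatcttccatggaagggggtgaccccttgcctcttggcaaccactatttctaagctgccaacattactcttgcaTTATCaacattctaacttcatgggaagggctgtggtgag
THBS1, chr15:39580829-39581078, plus strand: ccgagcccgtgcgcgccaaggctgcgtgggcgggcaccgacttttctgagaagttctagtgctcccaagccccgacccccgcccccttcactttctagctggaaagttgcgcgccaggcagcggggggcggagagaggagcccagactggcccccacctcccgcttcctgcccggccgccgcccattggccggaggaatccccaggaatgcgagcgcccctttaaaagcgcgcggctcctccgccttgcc
MMRN1, first of 2 starts, chr4:89879261-89879510, plus strand: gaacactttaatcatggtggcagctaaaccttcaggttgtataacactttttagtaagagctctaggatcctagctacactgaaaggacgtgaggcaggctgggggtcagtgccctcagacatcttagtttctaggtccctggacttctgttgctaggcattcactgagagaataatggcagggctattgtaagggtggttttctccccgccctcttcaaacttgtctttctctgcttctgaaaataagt
In the 250 bases before the RefSeq start, the match lay 216 bases upstream in *PPBP* and 108 bases upstream in *SELP*, and the *THBS1* and first *MMRN1* windows held none. The window of the second *MMRN1* start held 1 match, as did that of *F13A1*, and that of *TGFB1* held none. The *F13A1* match lies within the 243 bases of its window that are exon in GENCODE v29. Over all 35116 RefSeq promoters, 7179 windows of this length (20.4%) held at least 1 match on either strand. The same windows were also scanned for the ETS letters GGAAG or CTTCC and the MARE letters TGAGTCA or TGACTCA. ETS matches numbered 3 in *PPBP*, 4 in *SELP* and 1 each in *THBS1*, *TGFB1* and *F13A1*. The first *MMRN1* window held 0 and the second held 2. Over all RefSeq promoters, 65.1% held at least 1 ETS match. No window of a member held a MARE match. A match is a run of letters and not a bound site.

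*PF4* (chr4:73981077-73982124, minus strand, GRCh38) encodes platelet factor 4, a chemokine that binds heparin and is made almost only by megakaryocytes. Its level was 0.508, 0.461 and 0.559 CPM in the WT libraries, from 25, 22 and 23 counts. All 3 libraries of 11H1 and all 3 of 14B5 held 0 counts. WT therefore stood above both clones in every library, at a low level. Set against 3 counts over the group, with WT as counted, *PF4* was 20.3-fold lower in 11H1 and 27.3-fold lower in 14B5. With the counting error of WT included and no other error, the 95% exact binomial lower limit was 16.1-fold in 11H1 and 21.6-fold in 14B5. Its near-identical copy *PF4V1* was at 0 in all 9 libraries.

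*PPBP* (chr4:73987038-73988197, minus strand), the neighbour of *PF4*, encodes the precursor of the neutrophil attractant NAP-2 and is among the most abundant platelet transcripts. It was measured at 0.793, 0.461 and 0.510 CPM in WT, from 39, 22 and 21 counts. In 11H1 it was at 0.0917, 0.0913 and 0 CPM, and in 14B5 at 0, 0.0167 and 0 CPM. The single count of 14B5 lay in library 2. The clones lay below WT without overlap, while the libraries of the clones overlapped each other. Pooled counts gave a level 8.93-fold lower in 11H1 (95% exact binomial interval 4.33 to 21.4) and 96.0-fold lower in 14B5 (16.8 to 3837, from 1 count). These intervals, and those on pooled counts below, leave out all error but that of counting, and the reads carried no molecular identifiers.

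The chemokine genes around *PF4* and *PPBP* on chromosome 4 were mostly too low to be tested. Of 16 genes listed for the 4q13 cluster, 4 were tested in 11H1 versus WT, of which 3 rose and 0 fell (median log2FC 0.41). This is 75% called, against 64.6% of all genes tested. The 3 were *CXCL8*, the neutrophil chemokine IL-8 (log2FC 0.57, edgeR adjusted p = 0.0106), *CXCL2* (0.68, edgeR adjusted p = 0.0284) and *MTHFD2L* (0.25, edgeR adjusted p = 0.00879). In 14B5 versus WT 5 were tested and 40% called, against 53.5% of all genes, with a median log2FC of −0.19. *CXCL8* (log2FC −0.78, edgeR adjusted p = 0.00213) and the EGF receptor ligand *EREG* (log2FC −1.44) fell, at mean levels of 0.813 and 0.118 CPM. *EREG* passed the filter on low counts in 14B5 versus WT through WT only, so no p is given for it there. In 11H1 versus WT *EREG* was not tested, although its 0.0733 to 0.183 CPM lay below the 0.224 to 0.389 CPM of WT. Without the filter, its log2FC in 11H1 was −1.54 (edgeR adjusted p = 0.00717). *CXCL3* had log2FC −0.14 in 11H1 and −0.19 in 14B5 and passed the test in neither. The call of *CXCL2* was lost without any 1 of the 6 libraries (edgeR adjusted p 0.0504 to 0.103). It was also lost in the DESeq2 Wald test (DESeq2 adjusted p = 0.136). With edgeR it was lost without the filter, with the replicate block and in the 3-group fit (edgeR adjusted p 0.0528 to 0.0788). The call of *EREG* in 14B5 was lost without WT library 2 or 3 or 14B5 library 3. Within 1000000 bases of *PF4*, the median log2FC of the genes tested, *PPBP* included, was 0.29 in 11H1 (8 genes) and −0.17 in 14B5 (9 genes).

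*SELP* (chr1:169588849-169630193, minus strand) showed a graded loss across the clones. WT libraries held 2.79, 2.41 and 2.48 CPM (137, 115 and 102 counts). The 11H1 libraries held 0.330, 0.335 and 0.334 CPM, and the 14B5 libraries 0, 0.0334 and 0 CPM. The 3 groups did not overlap, and both counts of 14B5 lay in library 2, without which the level there was 0. From pooled counts *SELP* was 7.71-fold lower in 11H1 (5.55 to 11.0) and 207-fold lower in 14B5 (56.9 to 1718, from 2 counts). Pooled counts in 11H1 exceeded those in 14B5 by 26.9-fold (6.97 to 230). Between the clones *SELP* passed the filter on low counts through 11H1 only, so its edgeR estimate (log2FC 4.49 ± 0.67, SE) is given with no p, and it ran from 3.94 to 6.90 over the alternatives. The 12 other genes tested within 1000000 bases of *SELP* had a median log2FC of −0.30 in 11H1 and −0.004 in 14B5.

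*VWF* (chr12:5948874-6124770, minus strand), the carrier of factor VIII and the ligand that tethers platelets through the GPIb complex, was barely detected. WT libraries held 5, 3 and 5 counts, 11H1 libraries 1, 0 and 0, and 14B5 libraries 0, 5 and 2. In CPM, WT lay at 0.0629 to 0.121, 11H1 at 0 to 0.0183 and 14B5 at 0 to 0.0836. The 11H1 libraries lay below WT, whereas 14B5 overlapped both other groups. Pooled counts gave 11.3-fold less in 11H1 (1.70 to 481, from 1 count) and 2.17-fold less in 14B5 (0.806 to 6.44, an interval that includes no difference). *VWF* did not pass the filter on low counts in any comparison and so was not tested across genes. The pseudogene *VWFP1*, which shares its sequence, was at 0 throughout.

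**Figure D1:**
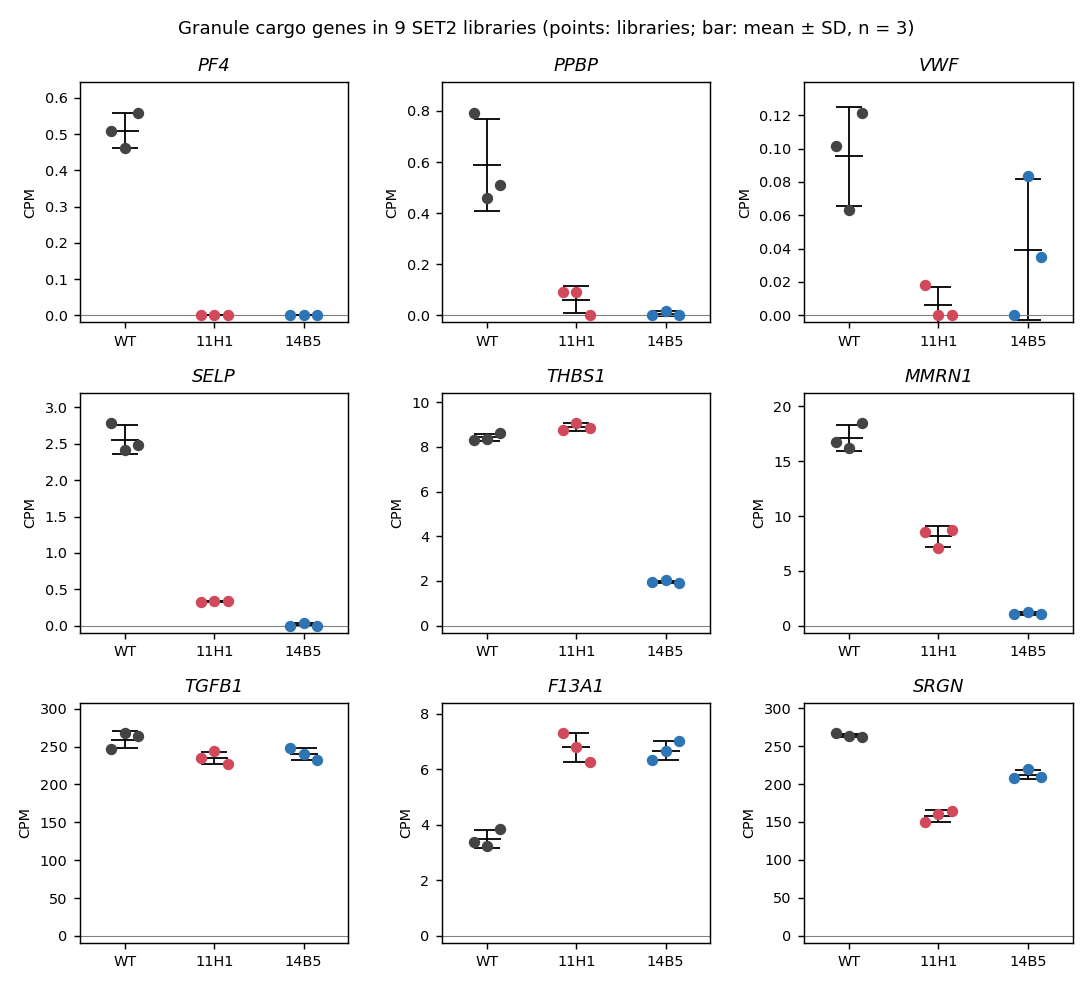
CPM of the 9 granule cargo genes in each library of WT, 11H1 and 14B5, 1 panel per gene with its own axis from 0; points are libraries and bars are mean ± SD (n = 3). *PF4* is at 0 in all 6 clone libraries, *THBS1* is low in 14B5 (1.91 to 2.02 CPM), and *F13A1* is higher in both clones (6.26 to 7.30 CPM) than in WT (3.25 to 3.86 CPM).

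*THBS1* (chr15:39581079-39599466, plus strand) encodes thrombospondin 1, an adhesive and anti-angiogenic protein that also activates latent TGF-β. WT libraries held 8.32, 8.36 and 8.63 CPM. The 11H1 libraries held 8.75, 9.07 and 8.85 CPM, just above WT, and the 14B5 libraries 1.94, 2.02 and 1.91 CPM, far below both. The difference of 11H1 from WT did not pass the test (log2FC 0.08 ± 0.07, 95% interval −0.08 to 0.24, edgeR adjusted p = 0.356). In 14B5 *THBS1* fell (log2FC −2.12 ± 0.09, edgeR adjusted p = 5.80e-08). The direct comparison of the clones gave a log2FC of 2.19 ± 0.10 (edgeR adjusted p = 9.26e-09), which is 4.55-fold. The opposite-strand gene *FSIP1* overlaps *THBS1* and held 29 to 60 counts per library.

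*MMRN1* (chr4:89879532-89954629, plus strand) encodes multimerin 1, the large multimeric protein that carries factor V in platelets. WT libraries held 16.8, 16.2 and 18.5 CPM, 11H1 libraries 8.58, 7.06 and 8.76 CPM, and 14B5 libraries 1.04, 1.24 and 1.03 CPM. The 3 groups were separated, with 11H1 between WT and 14B5, the order also seen for *SELP*. *MMRN1* fell in 11H1 (log2FC −1.06 ± 0.09, 2.09-fold lower, edgeR adjusted p = 1.07e-06) and in 14B5 (−3.97 ± 0.11, 15.7-fold lower, edgeR adjusted p = 2.74e-09). 11H1 exceeded 14B5 by log2FC 2.89 ± 0.13 (edgeR adjusted p = 1.36e-08). The 5 other genes tested within 1000000 bases had a median log2FC of −0.33 in 11H1 and −0.59 in 14B5.

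*TGFB1* (chr19:41301587-41353911, minus strand), the growth factor that platelets store in latent form and release into marrow and wounds, was the steadiest member. WT libraries held 246, 268 and 264 CPM, 11H1 libraries 235, 244 and 227 CPM, and 14B5 libraries 248, 240 and 232 CPM. The clones overlapped each other and 14B5 overlapped WT, whereas 11H1 lay just below WT. Log2FC was −0.13 ± 0.05 in 11H1 (edgeR adjusted p = 0.0304) and −0.13 ± 0.05 in 14B5 (edgeR adjusted p = 0.0558), so that estimates of nearly the same size fell on either side of the threshold. The difference between the clones was −0.02 (95% interval −0.12 to 0.08, edgeR adjusted p = 0.679). The call in 11H1 was lost without WT library 2, without 11H1 library 1 and without 11H1 library 3 (edgeR adjusted p up to 0.128), and that in 14B5 was gained without WT library 1 (edgeR adjusted p = 0.0370). *HNRNPUL1*, on the opposite strand and overlapping *TGFB1*, held 18685 to 37714 counts per library. Whether counting used strand is not given in the sources used here, and the labels and the methods of the study name different library kits, so a share of these counts in *TGFB1* was not tested.

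*F13A1* (chr6:6144085-6321013, minus strand) was the only member that rose in a tested comparison with WT. WT libraries held 3.38, 3.25 and 3.86 CPM, 11H1 libraries 7.30, 6.82 and 6.26 CPM, and 14B5 libraries 6.34, 6.66 and 7.01 CPM. Every clone library stood above every WT library, and the clones overlapped. *F13A1* rose by log2FC 0.97 ± 0.11 in 11H1 (1.96-fold, edgeR adjusted p = 8.86e-06) and by 0.92 ± 0.10 in 14B5 (1.89-fold, edgeR adjusted p = 4.04e-05). The clones differed by log2FC 0.04 (95% interval −0.16 to 0.23, edgeR adjusted p = 0.735). The 9 other genes tested within 1000000 bases had a median log2FC of −0.33 in 11H1 and −0.22 in 14B5.

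*SRGN* (chr10:69088106-69104811, plus strand) was the most abundant member per kilobase of exon and fell in both clones, further in 11H1. WT libraries held 267, 263 and 262 CPM, 11H1 libraries 150, 160 and 164 CPM, and 14B5 libraries 208, 219 and 209 CPM. The 3 groups did not overlap, and here 14B5 lay between WT and 11H1, the reverse of the order of *SELP* and *MMRN1*. *SRGN* fell in 11H1 (log2FC −0.74 ± 0.05, 1.67-fold lower, edgeR adjusted p = 8.33e-08) and in 14B5 (−0.33 ± 0.04, 1.26-fold lower, edgeR adjusted p = 1.39e-04). 11H1 was lower than 14B5 by log2FC −0.42 ± 0.05 (edgeR adjusted p = 9.62e-06). The 20 other genes tested within 1000000 bases had a median log2FC of 0.23 in 11H1 and 0.21 in 14B5.

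**Figure D2:**
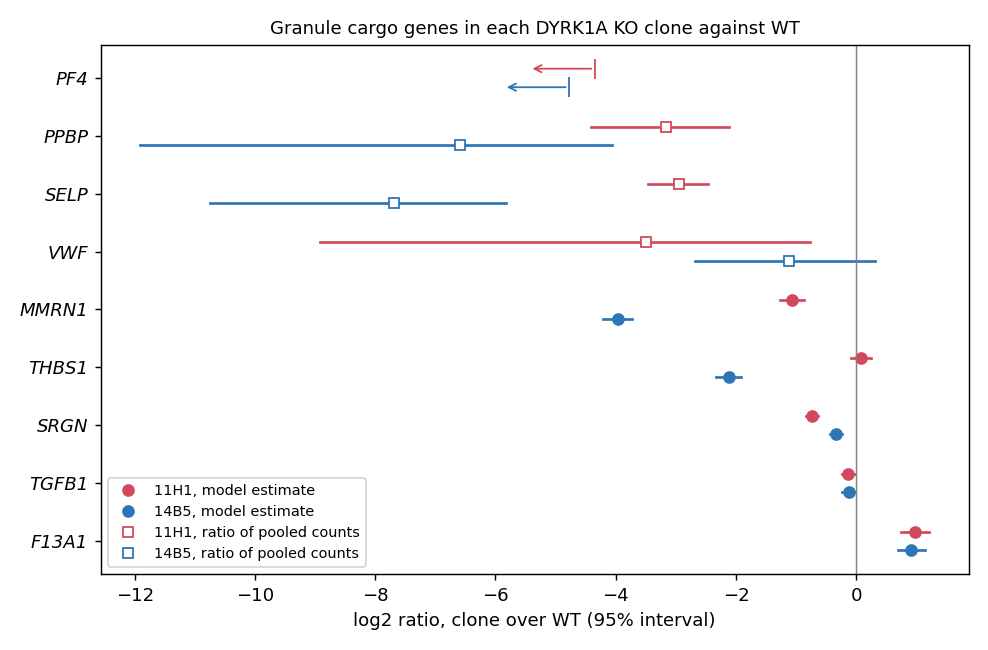
Log2 ratio of each clone to WT with its 95% interval for the 9 members: filled circles are edgeR estimates, and open squares are ratios of pooled counts with exact binomial intervals. The arrows of *PF4* start at the change given by 3 counts over the group with WT as counted, which is not an exact binomial limit. 14B5 lies further below 0 than 11H1 for *SELP*, *MMRN1* and *THBS1*, and 11H1 lies further below for *SRGN*.

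Counted over the set, 8 of the 9 members passed the filter in 11H1 versus WT and 7 of these passed the test, 1 higher and 6 lower. Of all 16675 genes tested in that comparison, 64.6% passed, 31.8% higher and 32.8% lower. In 14B5 versus WT 8 members were tested and 7 passed, 1 higher and 6 lower, against 53.5% of 16537 genes (24.9% higher and 28.7% lower). In 11H1 versus 14B5 6 members were tested and 4 passed, of which *SELP*, *THBS1* and *MMRN1* were higher in 11H1 and *SRGN* was lower, against 63.7% of 16352 genes (31.6% higher and 32.1% lower). The 2 comparisons with WT share the WT libraries and are not independent. *PF4* and *PPBP* passed the filter through WT, as *SELP* did in 14B5 versus WT, and *SELP* passed it between the clones through 11H1, so these members had to differ to be tested, and the counts are given as a description.

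With both clones pooled (KO, n = 6) against WT (n = 3), 5 of 8 members tested passed, 1 higher and 4 lower, against 32.0% of 17080 genes (14.3% higher and 17.7% lower). *PF4* and *PPBP* were among the 5 but passed the filter through WT only, so no p is given for them. The others were *SELP* (edgeR adjusted p = 0.00354), *SRGN* (log2FC −0.51 ± 0.13, edgeR adjusted p = 0.0113) and *F13A1* (0.95 ± 0.10, edgeR adjusted p = 1.08e-04). *MMRN1*, which fell in each clone taken alone, had log2FC −1.91 ± 0.69 (edgeR adjusted p = 0.0589) in a fit whose spread includes the distance between the clones, and passed without 11H1 library 1 (edgeR adjusted p = 0.0439) or 11H1 library 3 (edgeR adjusted p = 0.0471). *THBS1* had log2FC −0.65 ± 0.56 (edgeR adjusted p = 0.411), a mean of a clone that differed from WT and a clone for which no difference was detected. *TGFB1* had log2FC −0.13 ± 0.05 (edgeR adjusted p = 0.102). In 2-sided exact permutation tests of CPM over the 84 splits, unadjusted over the 9 members, p was 0.0119, the smallest possible, for *PF4*, *PPBP*, *SELP*, *MMRN1* and *F13A1*. The exact permutation p was 0.0238 for *VWF*, *TGFB1* and *SRGN*, and 0.464 for *THBS1*. These splits and the pooled edgeR fit treat the 6 KO libraries as exchangeable, although they are 3 libraries each of 2 clones. The p values of both therefore do not extend to other clones.

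Levels were compared between members per kilobase of annotated exon. In WT the order was *SRGN* (216 CPM per kb), *TGFB1* (80.1 CPM per kb) and *MMRN1* (3.11 CPM per kb), which were separated from each other and from the rest. *THBS1*, *PF4*, *PPBP*, *F13A1* and *SELP* followed at 0.921, 0.844, 0.823, 0.745 and 0.733 CPM per kb, and neighbours in this run overlapped between libraries. *VWF* was last at 0.00918 CPM per kb. In 11H1 *MMRN1* (1.48 CPM per kb) and *F13A1* (1.45 CPM per kb) overlapped behind *SRGN* (129 CPM per kb) and *TGFB1* (72.7 CPM per kb), and *THBS1* followed at 0.971 CPM per kb. *SELP* and *PPBP* came next at 0.0955 and 0.0853 CPM per kb and overlapped. In 14B5 *F13A1* (1.42 CPM per kb) stood alone in the third place behind *SRGN* (174 CPM per kb) and *TGFB1* (74.2 CPM per kb), with *THBS1* (0.214 CPM per kb) and *MMRN1* (0.200 CPM per kb) overlapping below it. With the longest transcript as the length, *F13A1* stood before *MMRN1* in 11H1 and before *PF4* in WT.

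**Figure D3:**
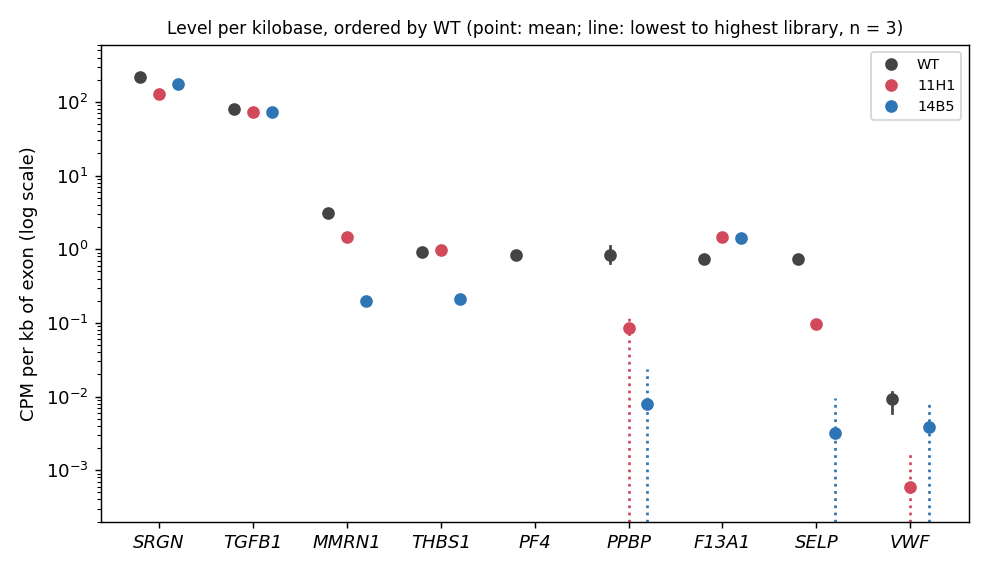
Mean level per kilobase of exon (log axis, CPM per kb) of each member in WT, 11H1 and 14B5, ordered by WT; lines span the lowest to the highest library (n = 3), dotted where the lowest is 0, and *PF4* in the clones is at 0 and cannot be drawn. *SRGN* and *TGFB1* lie more than 10 times above the other members in every group.

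Other genes of alpha granule cargo were read for context. Of 44 listed, 24 were tested in 11H1 versus WT, of which 5 rose and 14 fell (median log2FC −0.39, against −0.01 over all genes tested). In 14B5 versus WT 4 of 24 rose and 12 fell (median −0.18, against −0.01), and between the clones 4 of 22 were higher and 10 lower in 11H1. The share called was 79.2% in 11H1, 66.7% in 14B5 and 63.6% between the clones, against 64.6%, 53.5% and 63.7% of all genes. *ANGPT1*, the vessel-stabilizing ligand of TEK, fell from 43.5 CPM in WT to 16.5 in 11H1 (edgeR adjusted p = 7.20e-08) and 15.2 in 14B5 (edgeR adjusted p = 2.99e-07). *EGF*, the epidermal growth factor, fell from 5.70 CPM to 1.86 in 11H1 (edgeR adjusted p = 7.19e-07). In 14B5 *EGF* was at 0.254 CPM, which gives the order of *SELP* and *MMRN1*. There it passed the filter on low counts through WT only, so no p is given for 14B5. *VTN*, the adhesive protein vitronectin, rose from 1.25 CPM to 3.54 (edgeR adjusted p = 1.74e-06) and 9.31 (edgeR adjusted p = 1.27e-08).

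Genes that build granules and pack the cargo were called in both directions, at 63.0% in each clone against 64.6% of all genes in 11H1 and 53.5% in 14B5. Of 27 genes of granule biogenesis, all tested, 9 rose and 8 fell in 11H1, 8 rose and 9 fell in 14B5, and 8 were higher and 8 lower in 11H1 than in 14B5. The median log2FC was −0.08 in 11H1 and −0.02 in 14B5, against −0.01 over all genes in either comparison. *NBEAL2*, whose loss empties alpha granules in gray platelet syndrome, was at 153 CPM in WT, 272 in 11H1 and 129 in 14B5, and rose in 11H1 (log2FC 0.84, edgeR adjusted p = 4.00e-08) while it fell in 14B5 (−0.26, edgeR adjusted p = 0.0163). The fall was lost without WT library 2 or 14B5 library 1 (edgeR adjusted p of 0.0613 and 0.0508). The small GTPase *RAB32*, which traffics cargo to lysosome-related organelles, fell from 9.46 CPM to 1.80 in 11H1 (edgeR adjusted p = 4.64e-09). In 14B5 it was at 0.176 CPM and passed the filter on low counts through WT only, so no p is given for 14B5. *RAB27B*, needed for granule number and release, fell from 40.3 CPM to 14.1 (edgeR adjusted p = 1.22e-08) and 5.39 (edgeR adjusted p = 1.93e-08). Of 23 genes of granule secretion, 3 rose and 13 fell in 11H1, 5 rose and 8 fell in 14B5, and 6 were higher and 13 lower in 11H1 than in 14B5 (22 tested). Its median log2FC was −0.14 in 11H1 and −0.04 in 14B5. Called were 69.6% in 11H1, 56.5% in 14B5 and 86.4% between the clones, against 64.6%, 53.5% and 63.7% of all genes. *CADPS2*, a priming factor of dense-core vesicle release, was at 5.42 CPM in WT, 0.140 in 11H1 and 0.155 in 14B5. It passed the filter on low counts in both comparisons with WT through WT only, so no p is given.

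Of 12 dense granule genes, 9 were tested, of which 1 rose and 6 fell in 11H1, 2 rose and 6 fell in 14B5, and 2 were higher and 3 lower in 11H1 than in 14B5. The median log2FC was −0.20 in both clones. Of those tested, 77.8% were called in 11H1, 88.9% in 14B5 and 55.6% between the clones, against 64.6%, 53.5% and 63.7% of all genes. *SLC18A2*, the transporter that fills granules with serotonin, fell from 65.3 CPM to 34.1 (edgeR adjusted p = 2.28e-08) and 30.6 (edgeR adjusted p = 7.57e-08), and the nucleotide transporter *ABCC4* fell from 461 CPM to 309 (edgeR adjusted p = 2.57e-06) and 325 (edgeR adjusted p = 1.30e-04). Beside *SRGN* stand the enzymes that build and sulfate its chains: of 24 listed, 21 were tested against WT, of which 5 rose and 8 fell in 11H1 and 6 rose and 8 fell in 14B5. Between the clones 20 of these were tested, with 4 higher and 7 lower in 11H1, and the median log2FC was −0.06 in 11H1 and 0.07 in 14B5. Their share called was 61.9% in 11H1, 66.7% in 14B5 and 55% between the clones, against the same shares of all genes. *PAPSS2*, which makes the sulfate donor, fell from 36.3 CPM to 11.6 (edgeR adjusted p = 1.34e-08) and 15.2 (edgeR adjusted p = 3.57e-07), so that it was lower in 11H1 than in 14B5, as *SRGN* was. The epimerase *DSE* fell from 6.19 CPM to 2.37 (edgeR adjusted p = 8.36e-07) and 1.32 (edgeR adjusted p = 1.32e-07), and the sulfotransferase *CHST3* rose from 1.59 CPM to 2.61 (edgeR adjusted p = 5.93e-04) and 2.85 (edgeR adjusted p = 0.00109).

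Of 28 genes of the TGF-β pathway other than *TGFB1*, 24 were tested: 7 rose and 9 fell in 11H1, 7 rose and 10 fell in 14B5, and 8 were higher and 9 lower in 11H1 than in 14B5. The median log2FC was −0.10 in 11H1 and −0.12 in 14B5. The share called was 66.7% in 11H1, 70.8% in 14B5 and 70.8% between the clones, against 64.6%, 53.5% and 63.7% of all genes. The co-receptor *ENG* fell from 103 CPM to 60.0 (edgeR adjusted p = 4.39e-08) and 63.0 (edgeR adjusted p = 7.36e-07). The inhibitory *SMAD6* fell from 19.7 CPM to 14.5 (edgeR adjusted p = 9.71e-05) and 7.05 (edgeR adjusted p = 4.16e-08), and *SMAD7* from 1.89 CPM to 1.24 (edgeR adjusted p = 0.0306) and 0.813 (edgeR adjusted p = 9.22e-05). *LRRC32*, which tethers latent TGF-β on platelets, was at 3.15 CPM in WT, 4.07 in 11H1 (edgeR adjusted p = 0.0153) and 1.93 in 14B5 (edgeR adjusted p = 0.00199), so that it rose in 11H1 and fell in 14B5. The fall of *SMAD7* in 11H1 was lost without WT library 2, 11H1 library 1 or 11H1 library 3 (edgeR adjusted p 0.0858 to 0.152). The rise of *LRRC32* in 11H1 was lost without WT library 1 and without 11H1 library 1 (edgeR adjusted p of 0.0729 and 0.0511).

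Of 27 receptors and partners of the cargo, 23 were tested against WT, of which 3 rose and 12 fell in 11H1 and 5 rose and 14 fell in 14B5. Between the clones 9 of 24 were higher and 7 lower in 11H1. The median log2FC was −0.37 in 11H1 and −0.28 in 14B5. Of those tested, 65.2% were called in 11H1, 82.6% in 14B5 and 66.7% between the clones, against 64.6%, 53.5% and 63.7% of all genes. *GP9*, a subunit of the complex that binds VWF, fell from 22.2 CPM to 4.27 (edgeR adjusted p = 3.37e-09) and 0.804 (edgeR adjusted p = 7.42e-09). *ITGB3*, the β subunit of the fibrinogen receptor, fell from 54.9 CPM to 20.3 (edgeR adjusted p = 1.67e-08) and 5.77 (edgeR adjusted p = 9.84e-09), and the collagen receptor *GP6* from 5.60 CPM to 2.41 (edgeR adjusted p = 7.90e-06) and 0.519 (edgeR adjusted p = 6.32e-08). *CXCR3*, a receptor for PF4 in a spliced isoform, was at 0.149 CPM in WT, 1.74 in 11H1 and 1.75 in 14B5. It passed the filter on low counts through the clones and not through WT, so no p is given.

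Of 23 transcription factors of the megakaryocyte lineage, 22 were tested: 10 rose and 7 fell in 11H1, 8 rose and 7 fell in 14B5, and 9 were higher and 4 lower in 11H1 than in 14B5. The median log2FC was −0.0011 in 11H1 and 0.02 in 14B5. Called were 77.3% in 11H1, 68.2% in 14B5 and 59.1% between the clones, against 64.6%, 53.5% and 63.7% of all genes. The ETS factor *FLI1*, which binds promoters of platelet genes including those of *PF4* and *GP9*, fell from 184 CPM to 118 (edgeR adjusted p = 7.10e-07) and 86.3 (edgeR adjusted p = 1.04e-07). Its relative *ERG* fell from 144 CPM to 93.3 (edgeR adjusted p = 8.66e-07) and 94.4 (edgeR adjusted p = 4.72e-06). *MEIS1*, a partner of HOX proteins, fell from 9.09 CPM to 6.45 (log2FC −0.49 ± 0.08) and 4.08 (−1.17 ± 0.08).

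**Figure D4:**
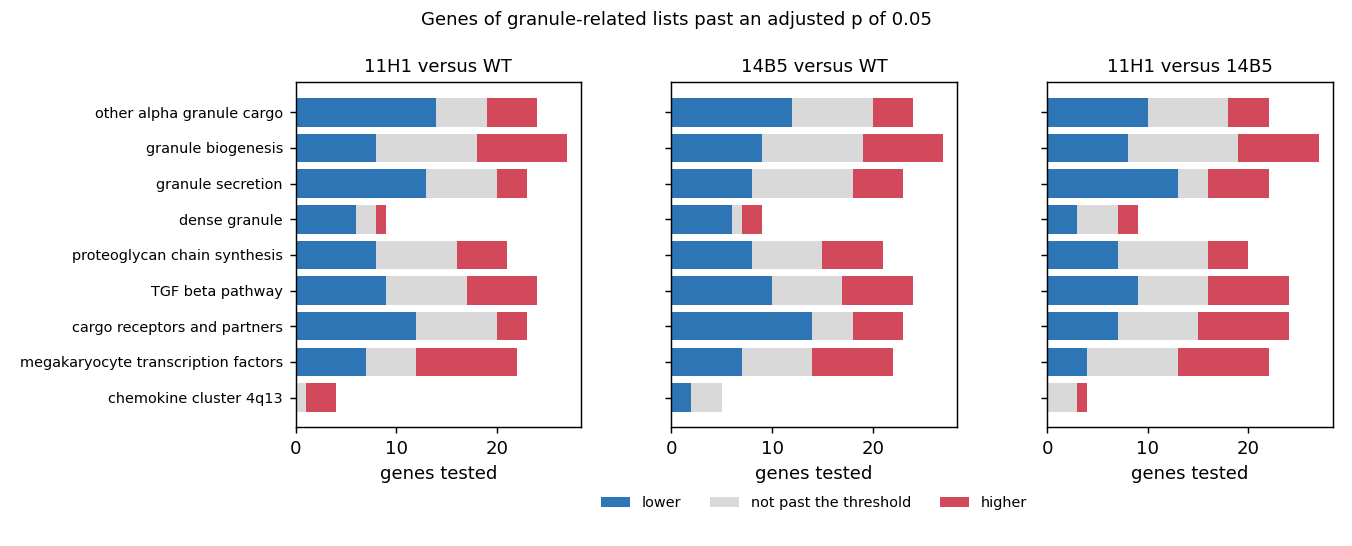
Number of tested genes that were lower (blue), not past the threshold (grey) or higher (red) at an adjusted p of 0.05 for 9 lists of genes around the cargo, in 11H1 versus WT, 14B5 versus WT and 11H1 versus 14B5; in the last, higher means higher in 11H1. Other alpha granule cargo shows 14 lower and 5 higher genes in 11H1 and 12 lower and 4 higher in 14B5. Over all genes tested, 32.8% were lower and 31.8% higher in 11H1, and 28.7% lower and 24.9% higher in 14B5.

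Markers of cell types that also make these proteins were read beside the members. Of all genes tested, 64.6% were called in 11H1 versus WT and 53.5% in 14B5 versus WT. All libraries are of 1 established line, so the lists describe expression within SET2 and not a mixture of tissues. Whether fewer SET2 cells express a marker or each cell holds less of its RNA cannot be told apart in bulk libraries. The 16 megakaryocyte markers summed to 1733 to 1742 CPM in WT, 1367 to 1403 CPM in 11H1 and 1345 to 1387 CPM in 14B5, and of 14 tested 1 rose and 10 fell in 11H1 and 3 rose and 10 fell in 14B5. The 16 endothelial markers summed to 484 to 522 CPM in WT, 274 to 278 CPM in 11H1 and no more than 208 CPM in 14B5, with *TEK* and *SOX17* at 0 in every library, and of 13 tested 12 fell in 11H1 and 13 in 14B5. The 16 monocyte and granulocyte markers summed to 267 to 276 CPM in WT, 129 to 137 CPM in 11H1 and 133 to 148 CPM in 14B5, with *CD163*, *S100A8* and *S100A12* at 0 throughout, and 6 of 7 tested fell in 11H1 while 3 of 9 rose and 6 fell in 14B5. The 12 mast cell and basophil markers summed to 2605 to 2744 CPM in WT, 2715 to 2799 CPM in 11H1 and 2258 to 2411 CPM in 14B5, with *CMA1* at 0 throughout, and of 10 tested 2 rose in each clone and 7 fell in 11H1 and 8 in 14B5. The 16 erythroid markers summed to 16386 to 18101 CPM, 15564 to 16630 CPM and 18076 to 19398 CPM, the 14 lymphoid markers to 191 to 209 CPM, 130 to 145 CPM and 187 to 199 CPM, and the 12 fibroblast markers to 13.4 to 14.3 CPM, 11.5 to 12.6 CPM and 8.01 to 9.25 CPM in the same order of groups. Of 16 erythroid markers tested 7 rose and 6 fell in 11H1 and 5 rose and 3 fell in 14B5, of 8 lymphoid markers 1 rose and 6 fell in 11H1 and 1 rose and 4 fell in 14B5, and of 6 fibroblast markers 1 rose and 3 fell in 11H1 and 5 fell in 14B5. The part of any of these in the levels of the cargo genes was not tested.

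Across the 9 libraries, the protein-coding gene whose log2 CPM (prior count 2) was most like that of each member was sought among the 11935 genes whose mean was 1 CPM or more. Pearson's r was 0.9996 for *DPP10* with *PF4*, 0.986 for *SLITRK6* with *PPBP*, 0.997 for *SGK3* with *SELP*, 0.999 for *ADAM28* with *THBS1*, and 0.998 for *ITGA9* with *MMRN1*. It was 0.992 for *PSMD2* with *F13A1*, 0.996 for *S100A11* with *SRGN*, 0.958 for *GCNT2* with *VWF* and 0.932 for *SETDB2* with *TGFB1*. Among the members, *SELP* with *MMRN1* had r = 0.966 and *THBS1* with *MMRN1* r = 0.953, while *THBS1* with *SRGN* had r = −0.11. The 9 points are 3 groups of 3 libraries, so these values describe which genes share a pattern over the 3 groups.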

How the data were processed

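RNA-seq of 9 untreated SET2 libraries was analysed. The deposited values are expected counts that the authors made with RSEM, not scaled for depth or length. Per the submitters' processing notes STAR 2.7.9a, Picard, RSEM and GRCh38 were used, while the annotation release, the RSEM version and the use of strand are not given in the sources used here. Of 60754 entries 60662 are genes and 92 are spike-in controls at 0 counts, and between 5.73% and 6.64% of the values in a library are fractional. Values were rounded and tested with edgeR 4.0.16 in R 4.3.3 (TMM, filterByExpr on the groups compared, 2-sided quasi-likelihood F test, Benjamini-Hochberg over all genes tested, threshold 0.05). Only the groups compared entered a fit. KO versus WT pooled both clones. The study states 5 KO libraries without saying which they were. All 6 entered here, and each was dropped in turn. Members with few counts were compared by pooled counts with exact binomial 95% intervals, or, at 0, against 3 counts over the group. Single genes were also compared with an exact permutation test over libraries, which cannot go below 0.1 for 3 against 3.

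Coordinates are from GENCODE v29 on GRCh38, which placed 58587 genes (96.6%) by the identifier without its version. Promoters were at hand for 6 of the 9 members. Members and lists were chosen with earlier results of these data known. Beyond the members, the 3 genes of each list with the largest change past the threshold and a mean of at least 1 CPM were eligible to be named in each comparison, and *CXCL2*, *CXCL3* and *EREG* were added after their values were seen. Alternatives were DESeq2 1.42.0 (size factors, and its Wald test), limma 3.58.1 voom on unrounded values, no filter, protein-coding genes, no mitochondrial genes, a minimum of 10 counts in each library, the replicate number as a block, a 3-group fit, and each library left out. The steps were tested on simulated counts. No column was left out.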

Additional observations from a re-analysis of the deposited data

Results flagged for a closer look

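The clones differed from each other on *MMRN1*, *THBS1* and *SRGN* in a direct edgeR test of 11H1 against 14B5, so their distances from WT were unequal. The log2FC of 11H1 over 14B5 was 2.89 for *MMRN1* and 2.19 for *THBS1*, both higher in 11H1, and −0.42 for *SRGN*, lower in 11H1. For *SELP* it was 4.49, and 3.94 to 6.90 over the alternatives, but *SELP* was tested there only because it passed the filter on low counts through 11H1, and 14B5 held 2 counts. In each of these 4 the 3 libraries of 11H1 and the 3 of 14B5 did not overlap. The 4 were picked because they were called, as were 63.7% of the 16352 genes tested between the clones. The share of all genes that lack overlap was not counted.

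Further genes named above differed between the clones in the same test. Among cargo and chemokines the log2FC was 2.85 for *EGF*, 1.34 for *CXCL8* and −1.38 for *VTN*. Among genes that build, fill or release granules it was 3.39 for *RAB32*, 1.40 for *RAB27B*, 1.08 for *NBEAL2* and 0.16 for *SLC18A2*. *EGF* and *RAB32* passed the filter on low counts there through 11H1 only, as *SELP* did. For enzymes of the serglycin chains it was 0.84 for *DSE* and −0.37 for *PAPSS2*, and in the TGF-β pathway 1.08 for *LRRC32* and 1.05 for *SMAD6*. Among receptors it was 2.40 for *GP9*, 2.19 for *GP6* and 1.82 for *ITGB3*, and among transcription factors 0.67 for *MEIS1* and 0.45 for *FLI1*. Of these, the difference of *SLC18A2* was lost without 11H1 library 2, without 11H1 library 3 and without 14B5 library 2 (edgeR adjusted p 0.0579 to 0.0629). The effect of the KO and the founder cell of each clone cannot be told apart, and no group had enough libraries for a search for outlying samples.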

How the results depend on the processing

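Of the 9 members, *VWF* was called without the filter on low counts in 11H1 versus WT (log2FC −3.15, edgeR adjusted p = 0.0287) and not in 14B5 versus WT (−1.09, edgeR adjusted p = 0.347). Against WT, *TGFB1* changed side in 4 alternatives in 11H1 and 4 in 14B5, and no other tested member did so in any alternative of the 3 comparisons between single groups. *PPBP*, not tested between the clones, was called there in the 3-group fit (edgeR adjusted p = 0.0392). No named gene reversed a call. In KO versus WT, a fit of 3 groups, which takes the spread within each clone, called 10247 genes, 8 members and 119 genes of the lists, where pooling the clones had called 5471, 5 and 73. With at least 10 counts required in every library, which removes *PF4*, *PPBP* and *SELP*, 2 members were called. Leaving out each library in turn gave 45 to 74 list genes in KO versus WT, with the lowest without WT library 2. Correlations of same-numbered deviations ran from −0.145 to 0.0581 and gave no sign that the replicate number in the labels pairs the libraries. With 3 libraries in a group this check is weak and cannot settle the question. Of 6 libraries, 1, 0 and 3 correlated best with their own number in 11H1 with WT, 14B5 with WT and 11H1 with 14B5. With the replicate number as a block, 7, 7, 4 and 5 members were called in 11H1 versus WT, 14B5 versus WT, 11H1 versus 14B5 and KO versus WT, and 10710, 7529, 10097 and 3937 genes. With mitochondrial genes left out, 7, 7, 4 and 5 members were called. DESeq2, limma-voom, other size factors and protein-coding genes alone gave 6 to 7, 7 to 8, 4 and 5 to 6 members. At 0 to 8 counts over a clone, depth leaves only a bound for *PF4* and wide counting intervals for *PPBP*, *VWF* and, in 14B5, *SELP*.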
